A study of Mus musculus with 12 samples.

Results

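Aminoacyl-tRNA synthetases, the enzymes that load each tRNA with its amino acid, were followed across splenic erythroblasts of anaemic mice fed adequate or too little selenium. The members were a list of 36 synthetase genes, 20 of the cytosol and 16 of the mitochondrion, matched to the array by gene symbol. A feature of their own on the array was found for 34 of them (18 cytosolic and 16 mitochondrial) among 30702 genes, and all 34 passed the filter on dim genes. No feature naming Dars alone was found, and the feature of Aars also names Exosc6, so neither gene entered the counts.

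All mice were male and anaemic after phenylhydrazine, which lyses red cells so that the spleen must make new ones. Spleen cells were sorted on day 3 after the drug. For 3 months before it, the feed had held adequate selenium for some mice and was deficient in it for the others. From each diet, proerythroblasts, the earlier stage, and basophilic erythroblasts, the next stage, were hybridised to 3 arrays each, 12 in all, from 5 ng of total RNA per array (Affymetrix WT Pico labelling with biotin). Mouse strain and age are not given in the sources used here, no mice without phenylhydrazine were included, and nothing says whether the 3 arrays of a group came from separate animals or pools, so the p-values measure only the spread between these samples.

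Most amino acids have a synthetase of their own, and cells keep a cytosolic and a mitochondrial set. The genes whose names end in 2 encode the mitochondrial set, which serves the few proteins made from mitochondrial DNA. Kars and Gars are exceptions, since each encodes both the cytosolic and the mitochondrial enzyme. Several cytosolic synthetases sit together in a multi-synthetase complex held by the scaffold proteins AIMP1 and AIMP2. Many cytosolic synthetase genes are known targets of ATF4, the transcription factor of the amino acid response, which in erythroblasts is engaged through the heme-regulated kinase encoded by Eif2ak1.

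Erythroid marker genes were high in all groups but did not separate the stages on the deficient diet. Over the 9 erythroid markers used here, the array medians on the deposited log2 scale were 9.90 to 10.22 in proerythroblasts on the adequate diet and 10.47 to 10.64 on the deficient diet. In basophilic erythroblasts they were 10.44 to 10.92 and 10.11 to 11.11. With stage 5 of the 9 rose on the adequate and 2 on the deficient diet, where 28.7% and 31.1% of all genes rose. Markers of other blood cells were also present, with array medians in proerythroblasts of up to 8.80 for neutrophil and 8.30 for B cell genes. Replicate 2 stood apart in both basophilic groups. Its background features had a median of 4.19 on the adequate and 4.70 on the deficient diet, against 3.63 to 3.80 in the other basophilic arrays and 3.31 to 3.53 in proerythroblasts. Deficient basophilic replicate 3 is described in the labels as proerythroblasts, although its title and cell type say basophilic. The labels alone do not settle this, and its title was followed. Over all features it correlated at 0.986 with deficient basophilic replicate 1, and at 0.984 and 0.983 with adequate basophilic replicates 1 and 3. With replicate 2 the correlation was 0.910 (deficient) and 0.953 (adequate). With the 3 deficient proerythroblast arrays it was 0.969, 0.962 and 0.969, and with the adequate ones 0.950 to 0.953. Its correlations were thus higher with the basophilic arrays other than replicate 2 than with any proerythroblast array. Leaving this array out ended no call of a member in any comparison.

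Because cytosolic synthetases are known ATF4 targets, promoters were searched for TGATGNAA, the core of the amino acid response element, with N for any base and on both strands (TTNCATCA on the other). RefSeq's promoter table (GRCm38.p6, 250 bases before to 50 after each gene's start) held 27 of the members. The motif lay in a promoter of 5 of 13 cytosolic genes (38.5%) and of 0 of 14 mitochondrial ones, against 3.97% of all 32851 promoters in the table. A member counted if any promoter listed for it held the motif, whereas the share of all is over single promoters. The 5 were Aars, Gars, Iars, Tars and Yars. The windows of the 4 that were measured are shown because the cytosolic genes with the lowest diet estimates in basophilic erythroblasts include several of them, so those estimates are no independent evidence about the motif. Letters are on the strand of the gene, 5′ to 3′, and capitals mark the motif. They cover chr4:129189880-129189918 (+ strand) for Yars, chr6:55037945-55038000 (+) for Gars, chr13:49682111-49682149 (+) for Iars and chr15:11399659-11399699 (- strand) for Tars.
Yars: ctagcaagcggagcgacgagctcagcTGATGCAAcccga
Gars: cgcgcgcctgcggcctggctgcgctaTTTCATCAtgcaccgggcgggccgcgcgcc
Iars: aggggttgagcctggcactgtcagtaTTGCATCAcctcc
Tars: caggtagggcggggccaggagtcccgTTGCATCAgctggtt
In Gars and Tars the match begins upstream of the gene's start, and in Yars and Iars just after it. A match is a description of these letters, not a site shown to be bound. A second motif, CACGTG, reads the same on both strands. It lay in a promoter of 4 of 13 cytosolic genes (30.8%, Aars, Farsb, Iars and Tars) and of 1 of 14 mitochondrial ones (7.14%, Ears2). Of all promoters 7.15% held it. No match of the first motif overlapped a match of the second.

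Taken as families, both sets were lower at the later stage. The median over the 18 cytosolic genes was 9.40 ± 0.12 (SD, n = 3) in proerythroblasts on the adequate diet and 9.15 ± 0.38 on the deficient diet. In basophilic erythroblasts it was 8.55 ± 0.51 and 8.16 ± 0.46. The median over the 16 mitochondrial genes was 7.75 ± 0.25, 7.22 ± 0.16, 6.64 ± 0.09 and 6.57 ± 0.09 in the same order. All 3 deficient proerythroblast arrays had a lower mitochondrial median than all 3 adequate ones, while for the cytosolic genes the groups overlapped. Replicate 2 had the lowest cytosolic median in each basophilic group, 7.97 on the adequate and 7.65 on the deficient diet.

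**Figure D1:**
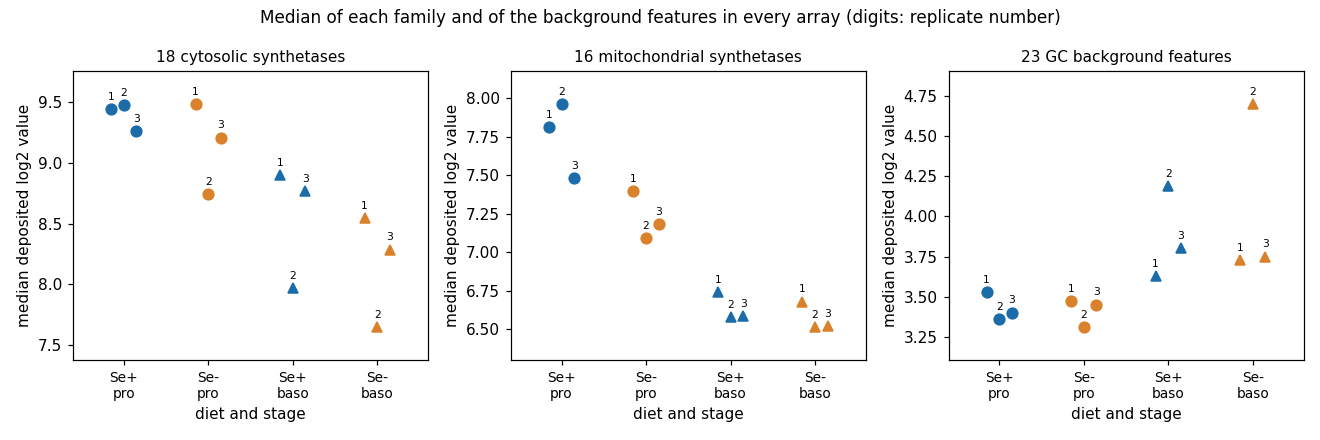
Median deposited log2 value of the 18 cytosolic synthetases, the 16 mitochondrial synthetases and the 23 GC background features in each of the 12 arrays (Se+, adequate diet; Se-, deficient diet; pro, proerythroblasts as circles; baso, basophilic erythroblasts as triangles; digits, replicate number). Both families are lower in basophilic erythroblasts, and basophilic replicate 2 of both diets has the highest background (4.19 and 4.70) and the lowest cytosolic median.

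In proerythroblasts, the question was how lack of selenium altered synthetase RNA. Among the mitochondrial genes, 2 of 16 fell, Cars2 and Rars2, and none rose, in a comparison in which 4.02% of all genes tested passed an adjusted p of 0.05, 2.76% as lower and 1.27% as higher (limma, Benjamini-Hochberg over 20128 genes). In all, 15 of the 16 estimates were below 0, against 45.8% of all genes, and their median log2 change was -0.37, against 0.02. The arrays did not overlap, with the deficient ones lower, for 11 of the 16, against 15.6% of all genes. Under quantile normalization or median centring of the arrays Pars2, the gene closest to 0, changed sign and all 16 were below 0. With median centring the calls over all genes split 168 higher to 844 lower, against 255 to 555 on the deposited values.

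Cars2 encodes the mitochondrial cysteinyl-tRNA synthetase. Its log2 values in adequate proerythroblasts were 8.02, 8.07 and 7.79, and in deficient ones 7.21, 6.55 and 7.05. Every deficient array lay below every adequate array, deficient replicate 2 furthest. Cars2 fell by 1.02 on the log2 scale (SE 0.17, 95% interval -1.39 to -0.65, adjusted p = 0.00581), a 2.03-fold decrease. This call held in all 25 alternatives run, with a highest adjusted p of 0.0385. The alternative threshold of 0.1 could not end a call. The settings for genes with several features left the values of Cars2 unchanged, since it has 1 feature.

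Rars2 encodes the mitochondrial arginyl-tRNA synthetase. It had 8.55, 8.65 and 8.40 in the adequate and 7.78, 6.80 and 7.41 in the deficient arrays. The groups were again apart, with deficient replicate 2 lowest. Rars2 fell by 1.20 (SE 0.24, 95% interval -1.73 to -0.68, adjusted p = 0.0153), a 2.30-fold decrease. The call was lost without adequate replicate 1 (adjusted p = 0.0703), adequate replicate 2 (0.0799), deficient replicate 2 (0.052, with a log2 change of -0.94) or deficient replicate 3 (0.057).

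Yars2, which charges mitochondrial tyrosine tRNA, and Sars2, which charges serine tRNA, came next. Yars2 had 8.52, 8.60 and 8.37 in the adequate and 7.99, 7.30 and 7.67 in the deficient arrays, a log2 difference of -0.84 (SE 0.27, adjusted p = 0.133). Sars2 had 8.24, 8.34 and 8.21 against 8.01, 7.71 and 7.69, a difference of -0.46 (SE 0.14, adjusted p = 0.11). In both genes the deficient arrays all lay below the adequate ones without passing the test. Of the other mitochondrial genes, Vars2 had -0.39, Tars2 and Hars2 -0.38, Aars2 -0.29, Ears2 -0.24 and Wars2 -0.22, all without overlap, and Iars2 -0.31, also without overlap. Mars2 (-0.54), Lars2 (-0.36), Nars2 (-0.19), Fars2 (-0.12) and Pars2 (0.01) had overlapping arrays.

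**Figure D2:**
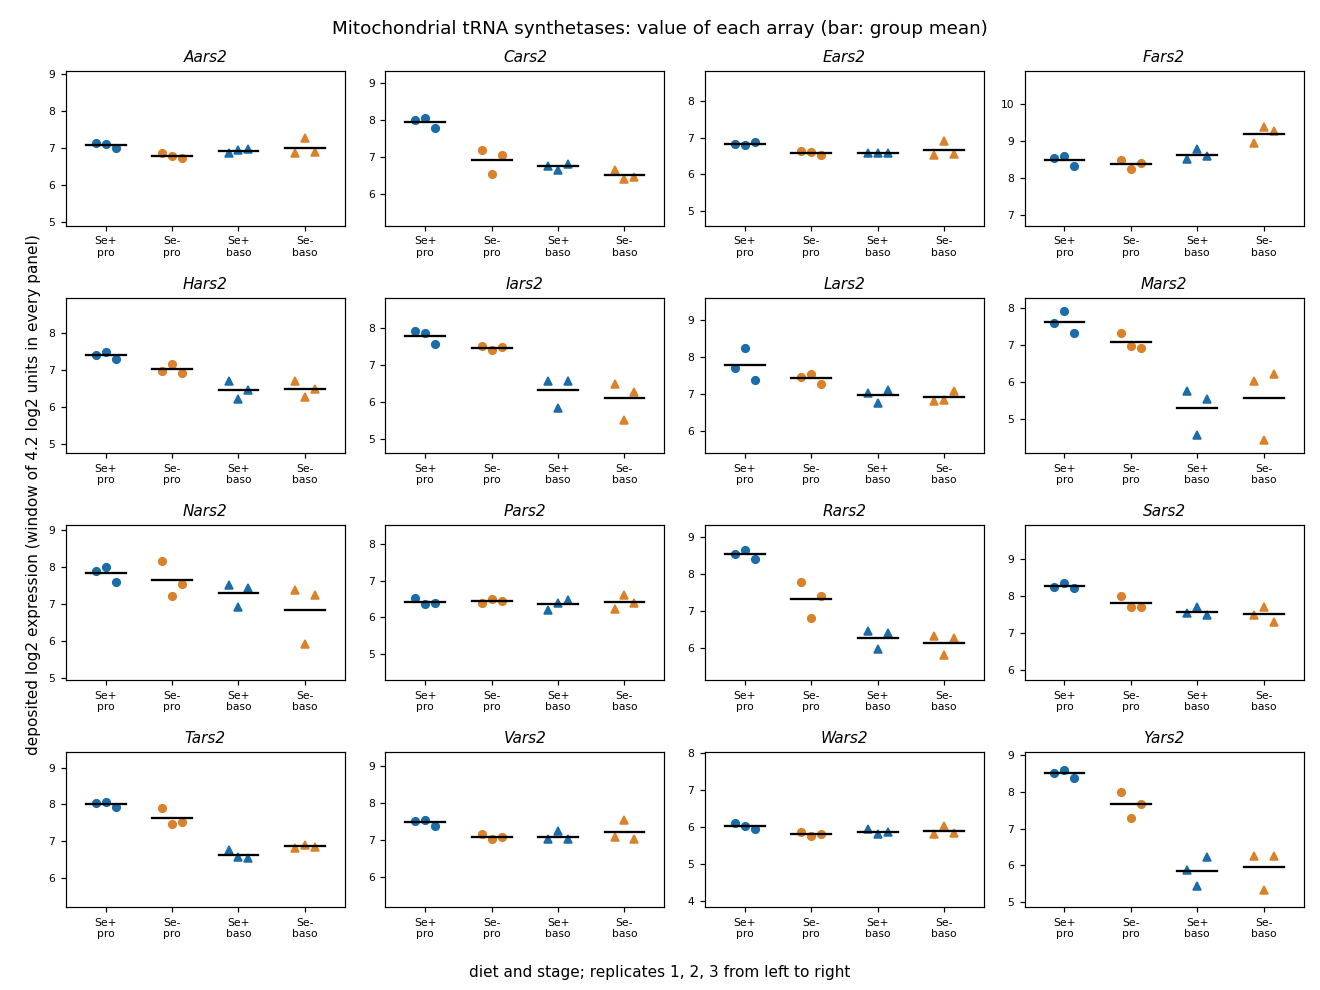
Deposited log2 value of the 16 mitochondrial synthetases in each array, with replicates 1, 2 and 3 from left to right and a bar at the group mean (Se+, adequate; Se-, deficient; pro, proerythroblasts; baso, basophilic erythroblasts); every panel spans the same number of log2 units. Cars2 and Rars2 step down from adequate to deficient proerythroblasts, Yars2, Rars2 and Mars2 are far lower in basophilic cells, and Fars2 is highest in deficient basophilic cells.

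Same-numbered arrays of the diets deviated together within a stage (correlations of 0.18 to 0.524 in proerythroblasts and 0.54 to 0.782 in basophilic erythroblasts). Basophilic replicates 1 and 3 did so across numbers too, at 0.598 (adequate 1, deficient 3) and 0.513 (adequate 3, deficient 1). There the correlations set replicate 2 apart, and a pairing of replicates 1 and 3 by number is not shown. The diet comparisons were also fitted with the replicate number as a block within each stage. With that pairing 5 mitochondrial genes fell in proerythroblasts, where 11.1% of all genes passed: Cars2 and Rars2 (adjusted p = 0.00391 for each), Yars2 (0.011), Sars2 (0.0317) and Hars2 (0.0354). Without replicate 2 of both basophilic groups, which enter this comparison only through the shared error estimate, 9 of the 16 fell, where 17% of all genes passed.

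Among the cytosolic genes 0 of 18 passed in proerythroblasts by limma, 2 had an unadjusted p under 0.05 (14% of all genes did), and 16 of 18 estimates were below 0, against 45.8% of all genes, with a median of -0.32 and a range of -0.62 to 0.18. Arrays did not overlap, with the deficient ones lower, for 10 of the 18, against 15.6% of all genes. The largest difference was in Eprs, the enzyme for both glutamate and proline tRNA, with 10.23, 10.04 and 10.12 in the adequate and 9.91, 9.06 and 9.57 in the deficient arrays. That is a log2 difference of -0.62 (SE 0.24, adjusted p = 0.227). Wars, the tryptophanyl-tRNA synthetase, had 8.84, 9.07 and 8.80 against 8.41, 8.51 and 8.29, a difference of -0.50 (SE 0.17, adjusted p = 0.147). In both genes the groups were apart, Eprs with a wide spread among the deficient arrays and Wars with a narrow one.

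Farsb, the beta subunit of the phenylalanyl-tRNA synthetase, had 9.74, 9.69 and 9.68 in adequate and 9.54, 8.72 and 9.21 in deficient proerythroblasts, a difference of -0.55 (adjusted p = 0.383). Mars, the methionyl-tRNA synthetase, had 8.93, 8.94 and 8.85 against 8.76, 8.16 and 8.54, a difference of -0.42 (adjusted p = 0.496). Deficient replicate 2 was the lowest array in Eprs, Farsb and Mars. Only Yars (0.14) and Vars (0.18) had estimates above 0. With the replicate number as a block within each stage, where 11.1% of all genes passed, 5 of 18 cytosolic genes passed as lower: Qars (adjusted p = 0.027), Wars (0.0301), Iars (0.0372), Farsb (0.039) and Eprs (0.0393). Without replicate 2 of both basophilic groups 2 of 18 passed, Qars (0.0277) and Wars (0.0244). That is no more than the share of all genes, 17% of which passed there.

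The 7 measured members of the multi-synthetase complex (Eprs, Iars, Kars, Lars, Mars, Qars and Rars) all had estimates below 0 in proerythroblasts, with a median of -0.52, against -0.24 for the other 11 cytosolic genes. In basophilic erythroblasts the order was the other way, with -0.24 in the complex and -0.45 in the others. This grouping was made with the values known and is a description. Erythroid markers moved with the diet in proerythroblasts. Of 9, 3 rose, where 1.27% of all genes rose, and the list's median log2 change was 0.31. Neutrophil markers had a median of 0.38 with 0 of 10 past the threshold (1 had an unadjusted p under 0.05). Array medians over 4 megakaryocyte markers were 6.87 to 7.20 in deficient and 6.64 to 6.83 in adequate proerythroblasts. The part of any of these markers in the synthetase differences was not tested. In RNA from sorted populations fewer cells of a type and less RNA per cell cannot be told apart.

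**Figure D3:**
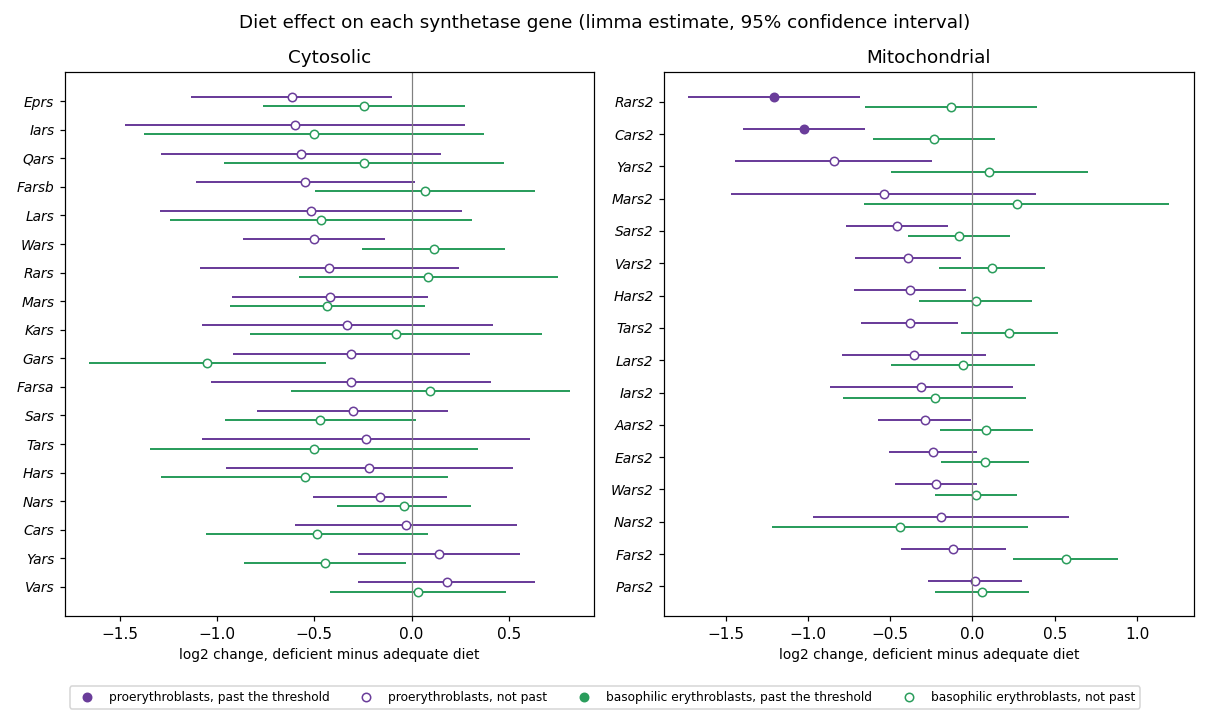
Log2 change on the deficient diet (deficient minus adequate) of each synthetase gene in proerythroblasts and in basophilic erythroblasts, cytosolic genes left and mitochondrial genes right; bars are 95% confidence intervals of the limma estimate and filled points are past the adjusted p of 0.05. Cars2 and Rars2 in proerythroblasts are the only filled points, and the proerythroblast estimates lie below 0 for 31 of 34 genes.

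The same diet comparison in basophilic erythroblasts gave 0 of 18 cytosolic and 0 of 16 mitochondrial genes past the threshold by limma, where 0.0199% of all genes passed (4 of 20128) and 6.48% had an unadjusted p under 0.05. Of the members 3 had such a p, Gars and Yars lower and Fars2 higher on the deficient diet. For the cytosolic genes 13 of 18 were below 0, with a median of -0.34, and for the mitochondrial genes 6 of 16, with a median of 0.04, against 41.7% and 0.04 for all genes. Scaling moved some signs: 12 cytosolic estimates were below 0 after quantile normalization and 14 after median centring, and 8 and 9 mitochondrial ones. Without replicate 2 of both basophilic groups 11 of 16 mitochondrial estimates were below 0 (median -0.04) and 13 of 18 cytosolic ones (median -0.34). The difference between the families was not tested.

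Gars, which charges glycine tRNA in cytosol and mitochondrion and whose promoter window is printed above, had the largest difference. Its values were 10.43, 9.24 and 10.15 in adequate and 9.10, 8.40 and 9.17 in deficient basophilic erythroblasts. All 3 deficient arrays lay below all 3 adequate ones, though adequate replicate 2 lay close to the deficient arrays. It was the only cytosolic gene without overlap, where 3.91% of all genes had none with the deficient arrays lower. The difference was -1.05 (SE 0.28, adjusted p = 0.323). It passed with the replicate number as a block within each stage (-1.05, adjusted p = 0.0094), where 1.45% of all genes passed, and without replicate 2 of both basophilic groups (-1.16, adjusted p = 0.00292), where 2.19% passed. The block rests on the replicate numbers, which for basophilic replicates 1 and 3 are not shown to pair the diets. In proerythroblasts Gars had 10.55, 10.47 and 10.53 against 10.32, 10.03 and 10.27, a difference of -0.31 (adjusted p = 0.848).

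Yars, the cytosolic tyrosyl-tRNA synthetase, had 7.80, 7.22 and 7.82 in adequate and 7.33, 6.84 and 7.33 in deficient basophilic erythroblasts. The groups overlapped through adequate replicate 2, and the difference was -0.45 (SE 0.19, adjusted p = 0.717). Among cytosolic genes with TGATGNAA in the promoter, Gars, Iars, Tars and Yars had differences of -1.05 to -0.45 (median -0.50). The 7 others in the promoter table had -0.47 to 0.10 (median -0.24). Genes missing from that table were as low, with -0.55 for Hars, -0.49 for Cars and -0.47 for Lars. The order of the medians was the other way in other comparisons: for the diet in proerythroblasts it was -0.27 with the motif and -0.42 without, and with stage on the adequate diet -0.735 and -1.52. No relation of the motif to the differences is shown by these 4 and 7 genes, which were read on the same arrays.

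On the mitochondrial side Fars2, which charges phenylalanine tRNA, had 8.51, 8.79 and 8.61 in adequate and 8.96, 9.38 and 9.27 in deficient basophilic erythroblasts. The deficient arrays were all higher, and the difference was 0.57 (SE 0.15, adjusted p = 0.311). Tars2, the mitochondrial threonyl-tRNA synthetase, had 6.77, 6.58 and 6.56 against 6.83, 6.90 and 6.85, also without overlap and by 0.22 (SE 0.14, adjusted p = 0.926). These 2 of 16 were the mitochondrial genes without overlap, where 4.13% of all genes had none with the deficient arrays higher. Cars2 and Rars2, which fell in proerythroblasts, had -0.23 (adjusted p = 0.954) and -0.13 (adjusted p = 0.954) here.

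**Figure D4:**
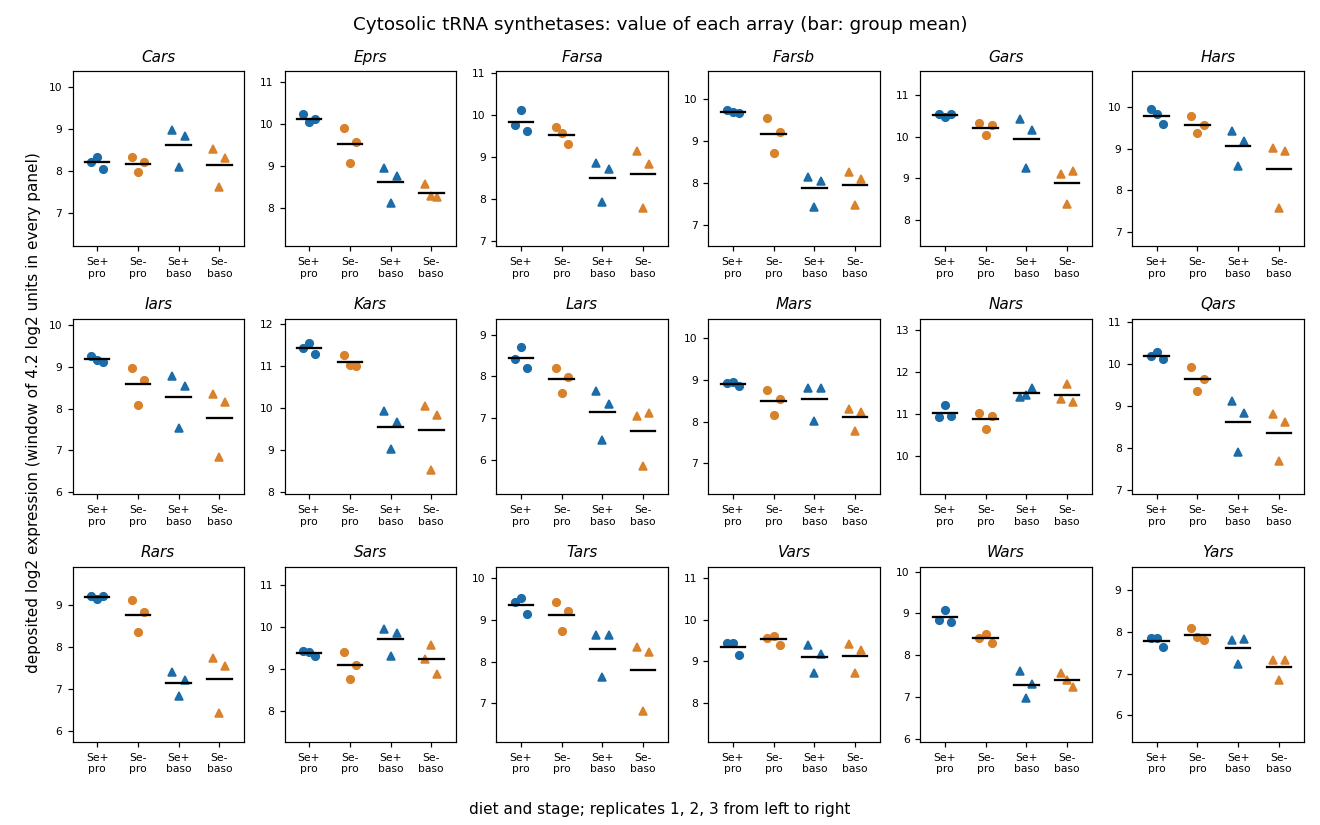
Deposited log2 value of the 18 cytosolic synthetases in each array, with replicates 1, 2 and 3 from left to right and a bar at the group mean (Se+, adequate; Se-, deficient; pro, proerythroblasts; baso, basophilic erythroblasts); every panel spans the same number of log2 units. Most genes are lower in basophilic erythroblasts, where replicate 2 is often the lowest array, while Nars is higher there.

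The comparison of the stages asked how synthetase RNA changed as proerythroblasts became basophilic erythroblasts. On the adequate diet 9 of 18 cytosolic genes fell and 1 rose, and 10 of 16 mitochondrial genes fell and none rose. This was a comparison in which 54.2% of all genes passed, 25.6% as lower and 28.7% as higher. The median log2 change was -0.98 for the cytosolic and -0.75 for the mitochondrial genes, against 0.12 for all genes. Estimates below 0 numbered 15 of 18 and 15 of 16, against 45.4% of all genes, and the arrays lay apart with the basophilic ones lower for 13 and 13, against 32.6%. The scaling of the arrays bore on the background: the calls over all genes split 5767 higher to 5143 lower on the deposited values, 2369 to 4221 after quantile normalization and 2132 to 6083 after median centring, which moved the median of all genes by -0.23. The cytosolic calls were then 2 higher to 7 lower and 0 to 9.

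Mitochondrial genes had the largest decreases. Yars2 went from the proerythroblast values above to 5.89, 5.45 and 6.23, and fell by 2.64 (log2; SE 0.27, adjusted p = 2.49e-05), or 6.23-fold. Rars2 went to 6.44, 5.96 and 6.40, and fell by 2.27 (SE 0.24, adjusted p = 2.73e-05), or 4.81-fold. Tars2, with 8.03, 8.07 and 7.93 in proerythroblasts, fell by 1.37 (SE 0.14, adjusted p = 1.71e-05), and Cars2, with 6.77, 6.65 and 6.83 in basophilic erythroblasts, by 1.21 (SE 0.17, adjusted p = 2.00e-04). In each of these genes every basophilic array lay below every proerythroblast array.

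Mars2, which charges the methionine tRNA that also starts mitochondrial translation, fell by 2.33 (SE 0.42, adjusted p = 0.00127), and its value of 4.56 in basophilic replicate 2 was near that array's background median of 4.19. Iars2 (-1.46), Hars2 (-0.93), Lars2 (-0.82), Sars2 (-0.69) and Vars2 (-0.38) fell as well. Sars2 did not pass after quantile normalization (-0.38, adjusted p = 0.177). Vars2 did not pass in 11 of the 25 alternatives, with adjusted p-values up to 0.598. They include leaving out any single adequate array or any single deficient proerythroblast array (0.0559 to 0.123).

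Of the cytosolic genes, Rars, the arginyl enzyme of the complex, fell most. It had 9.22, 9.15 and 9.22 in proerythroblasts and 7.40, 6.82 and 7.22 in basophilic erythroblasts, and fell by 2.05 (SE 0.30, adjusted p = 3.12e-04). Wars went to 7.61, 6.97 and 7.30, and fell by 1.61 (SE 0.17, adjusted p = 2.50e-05). Farsb went to 8.15, 7.42 and 8.04, and fell by 1.83 (SE 0.26, adjusted p = 2.16e-04). Eprs went to 8.95, 8.12 and 8.75, and fell by 1.52 (SE 0.24, adjusted p = 4.45e-04). The stages were apart in all 4 genes, and basophilic replicate 2 was the lowest array in each.

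Kars (-1.88), Qars (-1.60), Farsa (-1.35), the alpha subunit partner of Farsb, Lars (-1.29) and Tars (-1.06) also fell. The leucine and threonine enzymes were the least stable of these. After quantile normalization neither passed (Lars -1.11, adjusted p = 0.0502, and Tars -0.82, 0.0867). Without adequate basophilic replicate 2, Lars had -0.96 (adjusted p = 0.0594) and Tars -0.73 (0.153). Lars also lost its call without adequate proerythroblast replicate 2 (0.0522). Tars lost it without adequate proerythroblast replicate 1 (0.0888), 2 (0.10) or 3 (0.0553), or deficient proerythroblast replicate 3 (0.0501).

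Nars, the asparaginyl-tRNA synthetase, ran the other way. Its values were 10.93, 11.21 and 10.95 in adequate proerythroblasts and 11.39, 11.45 and 11.62 in adequate basophilic erythroblasts, so the basophilic arrays were all higher. Nars rose by 0.46 (SE 0.16, adjusted p = 0.0315). After median centring it had 0.25 (adjusted p = 0.181), and the call was lost without adequate basophilic replicate 2 (0.0707) or 3 (0.0972) or adequate proerythroblast replicate 1 (0.097) or 3 (0.0833). Members of the multi-synthetase complex had a median of -1.52, with 5 of 7 lower, against -0.58 for the other 11 cytosolic genes, with 4 lower and 1 higher. On the deficient diet the medians were -1.24 and -0.94, with 5 of 7 and 7 of 11 lower. Of all genes 25.6% were lower with stage on the adequate and 24.9% on the deficient diet. Without replicate 2 of both basophilic groups 10 cytosolic genes fell and 3 rose, with a median of -0.63, where 68.4% of all genes passed.

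**Figure D5:**
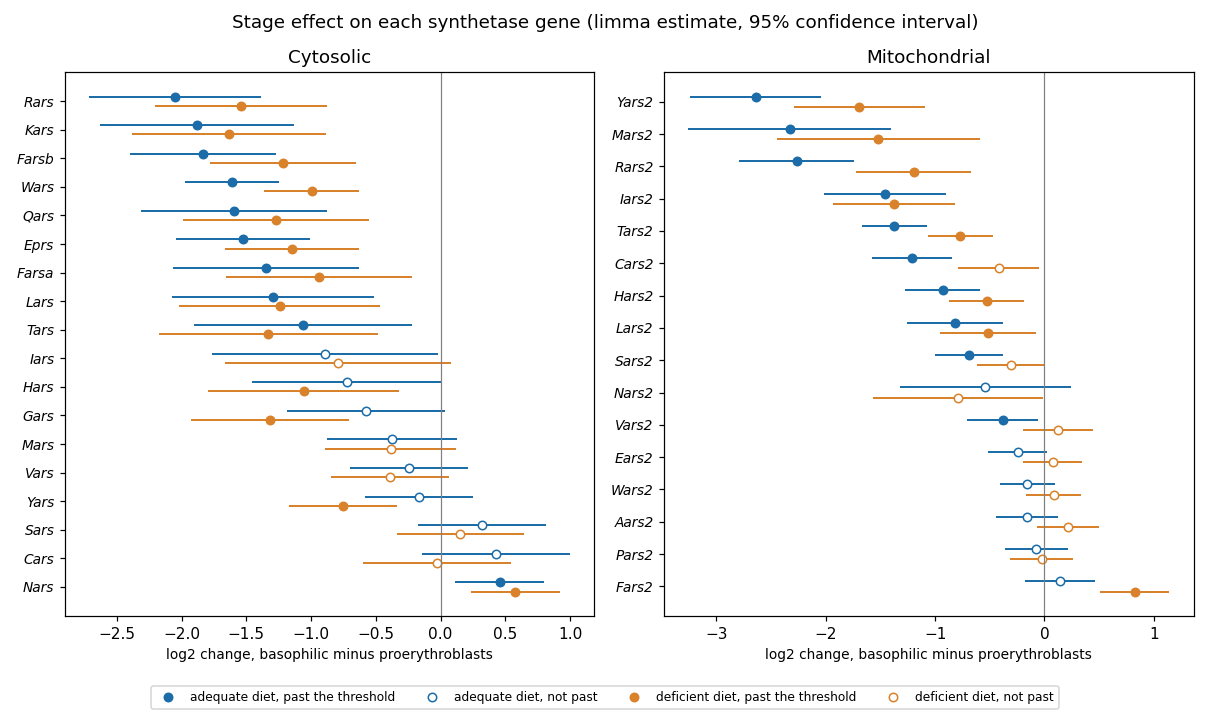
Log2 change with stage (basophilic minus proerythroblasts) of each synthetase gene on the adequate and on the deficient diet, cytosolic genes left and mitochondrial genes right; bars are 95% confidence intervals of the limma estimate and filled points are past the adjusted p of 0.05. Most filled points lie below 0 on both diets, with Nars on both diets and Fars2 on the deficient diet to the right.

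On the deficient diet 12 cytosolic genes fell and 1 rose, and 7 mitochondrial genes fell and 1 rose, where 56% of all genes passed, 24.9% as lower and 31.1% as higher. After median centring the split over all genes was 3417 higher to 6074 lower, against 6258 to 5012 on the deposited values, with the median of all genes moved by -0.21. The median changes of the families were -1.03 and -0.47, against 0.08 for all genes. Estimates were below 0 for 16 of 18 and 11 of 16, against 46.8%, and the basophilic arrays all lay lower for 12 and 7, against 29.6%. Both diet groups are compared within themselves, so no array is shared between the stage comparisons, although they share the error estimate. The mitochondrial decreases that passed were in Yars2, Tars2, Iars2, Rars2, Mars2, Hars2 and Lars2, and the cytosolic ones were the 9 above plus Gars, Hars and Yars. Mars2 had 4.44 in deficient basophilic replicate 2, below that array's background median of 4.70.

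In the deficient groups Yars2 went to 6.27, 5.34 and 6.27, and fell by 1.69 (SE 0.27, adjusted p = 0.00156). Rars2 went to 6.33, 5.80 and 6.27, and fell by 1.20 (SE 0.24, adjusted p = 0.00451). Tars2 went from 7.90, 7.46 and 7.53 in proerythroblasts to the basophilic values above, and fell by 0.77 (SE 0.14, adjusted p = 0.00235), and Iars2, the isoleucine enzyme, from 7.53, 7.40 and 7.49 to 6.49, 5.52 and 6.28, and fell by 1.38 (adjusted p = 0.00309). The stages were apart in all 4 genes. Cars2 had -0.42 and did not pass (adjusted p = 0.0513). Fars2 was the mitochondrial gene that rose, by 0.82 (SE 0.15, adjusted p = 0.00248), from 8.49, 8.24 and 8.41. On the adequate diet it had 0.14 (adjusted p = 0.419).

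Of the cytosolic genes, Wars went to 7.57, 7.40 and 7.25 and fell by 1.00 (SE 0.17, adjusted p = 0.00191) and Rars from 9.12, 8.37 and 8.83 to 7.73, 6.43 and 7.54 (-1.54, SE 0.30, adjusted p = 0.00426). Eprs went to 8.56, 8.27 and 8.26 (-1.15, SE 0.24, adjusted p = 0.00533). Kars, the lysine enzyme, went from 11.27, 11.02 and 11.01 to 10.04, 8.52 and 9.84 (-1.63, SE 0.34, adjusted p = 0.00582). All 4 fell without overlap, and the wide spread of Rars and Kars came from replicate 2. Gars fell by 1.32 (adjusted p = 0.00599), Yars by 0.75 (0.0118), Hars by 1.06 (0.0234) and Farsb by 1.22 (0.00607). On the adequate diet Gars had -0.58 (adjusted p = 0.0938) and Yars -0.17 (adjusted p = 0.462). Nars rose by 0.58 (SE 0.16, adjusted p = 0.0148), from 11.02, 10.64 and 10.95 to 11.36, 11.71 and 11.27, but not after median centring (0.38, adjusted p = 0.051).

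Some of these calls hung on single arrays or on the error estimate shared with the other groups. With only the arrays of the comparison, Farsa (adjusted p = 0.0719), Hars (0.0702), Lars (0.051), Tars (0.0582), Nars (0.066), Hars2 (0.0659), Lars2 (0.0642) and Mars2 (0.0527) did not pass, and with array weights Farsa (0.0588) and Nars (0.0529) did not. Without deficient basophilic replicate 2, Farsa had -0.54 (adjusted p = 0.109) against -0.94 with it. Without deficient proerythroblast replicate 1, the adjusted p was 0.0914 for Farsa, 0.0715 for Hars, 0.055 for Lars and 0.0576 for Tars, and without replicate 3 it was 0.0574, 0.0609, 0.0524 and 0.0545. Without deficient proerythroblast replicate 2, Farsa had 0.0719 and Hars2 0.0566. Lars2 lost its call in 12 of 25 alternatives, 8 of them leaving out a single array, with adjusted p-values up to 0.428. The single arrays are adequate proerythroblast replicate 1 (0.06), adequate basophilic replicates 1 (0.0568) and 3 (0.0574), deficient basophilic replicates 1 (0.101) and 2 (0.0939) and deficient proerythroblast replicates 1 (0.104), 2 (0.12) and 3 (0.0653).

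Neutrophil markers moved with the stage too. Their array medians were 6.85 to 8.80 and 7.19 to 8.07 in adequate and deficient proerythroblasts, and 6.02 to 6.49 and 6.35 to 6.64 in the basophilic groups. Of the 10 markers, 7 were lower on the adequate and 6 on the deficient diet, where 25.6% and 24.9% of all genes were lower. Their median log2 changes were -1.65 and -1.31. Over 4 megakaryocyte markers the array medians rose without overlap, from 6.64 to 6.83 up to 7.34 to 7.415 on the adequate diet. On the deficient diet they were 6.87 to 7.20 in proerythroblasts and 7.495 to 7.83 in basophilic erythroblasts. The medians of macrophage, B cell and T and NK cell markers overlapped between the stages on both diets. The basophilic arrays also had the higher background given above. What these markers or the background contribute to the stage differences of the synthetases was not tested.

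Whether the diet effect differed between the stages was tested directly, by subtracting the proerythroblast effect from the basophilic one. By limma 0 of 34 members passed, where 0.303% of all genes did. An unadjusted p under 0.05 was found for 6 of 16 mitochondrial and 1 of 18 cytosolic genes, against 9.15% of all genes. Estimates were below 0 for 1 of 16 mitochondrial and 8 of 18 cytosolic genes, against 44.2% of all genes. The medians were 0.39 and 0.08, against 0.03. Cars2 had 0.79 (SE 0.24, adjusted p = 0.242), Fars2 0.68 (SE 0.21, adjusted p = 0.243), Rars2 1.07 (SE 0.34, adjusted p = 0.267), Tars2 0.60 (SE 0.19, adjusted p = 0.268) and Wars 0.61 (SE 0.24, adjusted p = 0.396). Gars, in the other direction, had -0.74 (SE 0.39, adjusted p = 0.671), and passed without replicate 2 of both basophilic groups (-0.85, adjusted p = 0.0264), where 3.68% of all genes passed. The same test asks whether the stage effect differed between the diets, so a larger fall of Yars2 or Cars2 on the adequate diet is not shown. The calls over all genes split 32 higher to 29 lower on the deposited values and 7 to 16 after quantile normalization.

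Genes that work with the synthetases were read beside them, as partners and tRNA charging (14 tested of 16 listed) and as the amino acid response genes other than synthetases (25 of 28). In proerythroblasts 1 of 14 partners fell on the deficient diet, where 2.76% of all genes fell. It was Pstk, the kinase that phosphorylates seryl-tRNA on the way to selenocysteine, by 0.66 (SE 0.15, adjusted p = 0.0283). The call of Pstk was lost on leaving out any of 7 single arrays: each proerythroblast array in turn (adjusted p up to 0.148, without adequate replicate 2) or adequate basophilic replicate 3 (0.0513). In basophilic erythroblasts 0 of 14 passed by limma and 1 had an unadjusted p under 0.05. Of all genes, 25.6% fell with stage on the adequate and 24.9% on the deficient diet. Of the partners, all 14 fell on the adequate diet (median -1.15) and 13 on the deficient diet (median -0.82). They included Eef1e1, which binds the multi-synthetase complex (-2.31 and -1.69), Mtfmt, which formylates the mitochondrial initiator tRNA (-1.29 and -0.80), and Qrsl1, a subunit of the enzyme that makes mitochondrial glutaminyl-tRNA (-1.22 and -0.77).

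The amino acid response genes changed in both directions. Of all genes, 1.27% rose and 2.76% fell with the diet in proerythroblasts. In deficient proerythroblasts 3 of 25 rose, Eif2ak1 by 0.89 (SE 0.13, adjusted p = 0.00349), the transcriptional regulator gene Nupr1 by 0.56 (adjusted p = 0.0271) and Mthfd2, a mitochondrial folate enzyme, by 0.72 (adjusted p = 0.0392), while Aldh18a1, of proline synthesis, fell by 1.20 (SE 0.17, adjusted p = 0.00246). Eif2ak1 and Aldh18a1 kept their calls whichever array was left out. Nupr1 lost its call without any 1 of the proerythroblast arrays other than adequate replicate 3 (up to 0.14, without deficient replicate 3), and Mthfd2 without any 1 of 9 arrays (up to 0.186, without deficient proerythroblast replicate 3). In basophilic erythroblasts 0 of 25 passed by limma, 4 had an unadjusted p under 0.05 and 19 estimates were below 0, with a median of -0.20. Without replicate 2 of both basophilic groups 6 of the 25 passed as lower in basophilic erythroblasts, where 2.19% of all genes passed. Asns, the asparagine synthetase, had 10.67, 10.49 and 10.81 in adequate and 9.22, 10.51 and 8.97 in deficient basophilic erythroblasts (-1.09, adjusted p = 0.385). The stress regulator gene Ddit3 had 10.75, 10.22 and 10.57 against 9.63, 10.22 and 9.57 (-0.71, adjusted p = 0.389). In both genes deficient replicates 1 and 3 were low and replicate 2, the array that stood apart, was not.

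With stage, 15 of the 25 rose and 5 fell on the adequate diet (median 0.44), where 28.7% of all genes rose and 25.6% fell. On the deficient diet 8 rose and 6 fell (median 0.30), shares near the 31.1% and 24.9% of all genes. Eif2ak1 rose by 1.81 and 0.99 on the adequate and deficient diets. Phgdh, the first enzyme of serine synthesis, fell by 1.47 and 1.00. Aldh18a1 fell by 1.65 on the adequate diet and Eif2ak4, the kinase that senses uncharged tRNA, by 1.09 on the deficient diet. For the diet by stage difference 0 of 25 passed by limma, 8 had an unadjusted p under 0.05, and the median was -0.40. Without replicate 2 of both basophilic groups 7 passed, all below 0, where 3.68% of all genes passed.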

How the data were processed

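Expression was measured on 12 arrays in 4 groups of 3. The deposited values are log2 expression from Affymetrix Expression Console, per the submitters' processing notes; its version, background correction, summarisation and normalization are not given in the sources used here. The values were used as deposited, and their number of arrays limits the precision. Of 72688 features, 186 were controls, 31258 named exactly 1 gene and 1492 several; several-gene features were left out. The 30702 genes were represented by the feature with the highest mean, and 20128 were tested, those above 5.30 (the overall median) in 3 or more arrays.

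A mean per group was fitted with limma 3.58.1 (R 4.3.3, eBayes defaults; python 3.11.15 for tables), with Benjamini-Hochberg adjustment over all genes tested and a threshold of 0.05. A gene is said to rise or fall when it is past it. Confidence intervals are 95% intervals of the limma estimates. The fit was tested on simulated data. No test was made on a family as a whole.

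The members and gene lists were chosen with earlier results of these data known. Values in every array are given for up to 4 members of a family with the smallest p and no overlap between groups in a comparison, for the 2 with the smallest p in the basophilic diet comparison, and for 3 at most of each gene list as fold changes; Nars, Mthfd2, Asns and Ddit3 were added after their values were seen, as were the arrays given for a few members again in another comparison. Alternatives were 2 filters, quantile normalization, median centring, other variance settings, array weights, replicate blocks, the handling of several features, an adjusted p of 0.1, fewer arrays, and each array left out in turn.

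Replicate numbers come from the titles. Deviations of same-numbered arrays from their group means correlated between the diets at 0.18 to 0.524 in proerythroblasts and 0.54 to 0.782 in basophilic erythroblasts. Between the stages they correlated at -0.165 to 0.207 (adequate) and 0.097 to 0.254 (deficient). Numbers were taken to pair the diets within a stage only. For basophilic replicates 1 and 3 this is an assumption, since arrays of unlike number correlated between the diets at 0.598 and 0.513.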

Additional observations from a re-analysis of the deposited data

Results flagged for a closer look

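Tars2, the mitochondrial threonyl-tRNA synthetase, moved in opposite directions on the deficient diet in the stages. All 3 deficient proerythroblast arrays lay below the 3 adequate ones, with a log2 difference of -0.38, and all 3 deficient basophilic arrays lay above the 3 adequate ones, with 0.22. The difference between these effects was 0.60 (SE 0.19, adjusted p = 0.268 by limma over all genes tested), which did not pass, and neither diet effect passed by itself.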

How the results depend on the processing

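Each comparison was refitted under 25 alternatives (fewer for diet by stage, which cannot be fitted on the arrays of 1 contrast), and no called value reversed. Counts of members past the threshold that moved by more than 1.5 times were as follows. The cause of these moves was not tested. For the diet in proerythroblasts, array weights gave 12 cytosolic and 13 mitochondrial genes against 0 and 2, the replicate block within stage 5 and 5, the arrays of the contrast only 1 and 6, dropping replicate 2 of both basophilic groups 2 and 9, and median centring 4 mitochondrial genes. The share of all genes that passed also moved, from 4.02% to 11.1% with the block within stage and 17% without both replicates 2. Leaving out 1 array gave 1 to 5 mitochondrial genes, 1 without adequate proerythroblast replicates 1 or 2 or deficient ones 2 or 3, and 5 without deficient basophilic replicate 2. For the diet in basophilic erythroblasts the block within stage and dropping both replicates 2 each gave 1 cytosolic gene, where 1.45% and 2.19% of all genes passed. With stage, the block within stage gave 16 cytosolic genes on the adequate diet against 10, and the arrays of the contrast only gave 8 cytosolic and 5 mitochondrial genes on the deficient diet against 13 and 8. For diet by stage, dropping both replicates 2 gave 1 cytosolic gene, where 3.68% of all genes passed. Array weights gave 2 mitochondrial genes there (Fars2 and Yars2). For array weights, the arrays of the contrast only, median centring and single arrays left out, no share of all genes is given here. Nor is one given for the block within stage in the stage comparisons. Counts without such a share are not read as results about the members. The block across stages ended no call of a member, nor did the block within stage. Of the member calls, 7 of 10 cytosolic and 8 of 10 mitochondrial held in every alternative with stage on the adequate diet, 8 of 13 and 5 of 8 on the deficient diet, and 1 of 2 mitochondrial for the diet in proerythroblasts. Not every alternative could end a call. The threshold of 0.1 could not, and the settings for several features changed no member's values, since each measured member has 1 feature. Raised background in the basophilic arrays limits what can be read of low values there.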

Other observations

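Genes that make and trim tRNA were read with the same fits. Of the 20 tested genes of RNA polymerase III transcription (21 listed), 2 fell in deficient proerythroblasts, Gtf3c3, a subunit of the factor TFIIIC (-0.86, adjusted p = 0.0269), and Polr3b, the second largest polymerase subunit (-0.78, adjusted p = 0.0343), and the list's median was -0.19. Both calls were lost on leaving out single arrays: Gtf3c3 without any 1 of 5 proerythroblast arrays (adjusted p up to 0.139, without adequate replicate 1) and Polr3b without any 1 of 7 arrays (up to 0.168, without adequate proerythroblast replicate 1). In basophilic erythroblasts 0 passed by limma (2 had an unadjusted p under 0.05) and Polr3b had -0.87 (adjusted p = 0.173). With stage 13 fell and 1 rose on the adequate diet (median -0.97), and 11 fell and 1 rose on the deficient diet (median -0.83). Of all genes, 2.76% fell with the diet in proerythroblasts. With stage 25.6% fell and 28.7% rose on the adequate diet, and 24.9% fell and 31.1% rose on the deficient diet.

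The 18 tested tRNA processing genes (20 listed) had a median of -0.27 in deficient proerythroblasts. The 1 of them past the threshold was Rpp40, a subunit of RNase P, with 5.52, 5.86 and 5.68 in adequate and 5.19, 4.84 and 4.95 in deficient proerythroblasts. Rpp40 was above the filter of 5.30 only in the adequate proerythroblast arrays, so its entry into the test depended on the group where it is high, and its difference of -0.69 is given as a description. In basophilic erythroblasts 0 passed by limma and 2 had an unadjusted p under 0.05. With stage 13, Rpp40 included, fell on the adequate diet (median -1.07), among them Pop1, also of RNase P (-1.57), Tsen15, of the tRNA splicing endonuclease (-1.67), and Elac2, which trims the 3′ end of tRNA (-2.04). The fall of Rpp40 there uses the same arrays through which it entered the test, so it too is only a description. On the deficient diet 10 fell, Rpp40 again included (median -0.45). The share of all genes that passed in each comparison is given above.

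The feature that names both Aars and Exosc6 had log2 values of 8.63, 8.66 and 8.41 in adequate and 9.16, 8.96 and 8.94 in deficient proerythroblasts. In basophilic erythroblasts it had 9.51, 8.57 and 9.35 on the adequate and 9.12, 8.78 and 8.99 on the deficient diet. The values cannot be given to either gene.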
